A study of Mus musculus with 12 samples.

Results

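The question addressed here was whether loss of Scap changed how CD8 T cells respond to activation. The quantity measured was the interaction, the change from quiescence to 6 h of activation in cells lacking Scap minus the same change in control cells. It was computed for every probe set that carries 1 gene symbol, 34945 of the 45101 on the array, and these stand for 18193 genes. The cells were CD8 T cells of male mouse spleens, isolated with an enrichment kit. All mice carried Cd4-Cre, in which the Cd4 promoter drives the recombinase and which is active in the precursors of both CD4 and CD8 T cells. Control littermates were Cd4-Cre/Scap+/+ (WT) and the others Cd4-Cre/Scapfl/fl (KO), with 3 mice of each genotype. Cells were profiled quiescent (T0) or at T6, 6 h after they were placed on bound anti-CD3 with anti-CD28 in solution, which gave 4 groups of 3 arrays. Ages, strain background and which T0 and T6 arrays share a mouse are not given in the sources used here.

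SCAP escorts the SREBP transcription factors from the endoplasmic reticulum to the Golgi, where the proteases encoded by Mbtps1 and Mbtps2 release them to enter the nucleus. INSIG proteins hold SCAP back when sterols are plentiful, and active SREBP raises the genes of cholesterol synthesis and lipoprotein uptake. T cells that meet antigen leave quiescence, secrete cytokines and chemokines, and need new membrane before they divide.

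Scap was measured first. Its log2(signal + 16) in WT was 11.53, 11.03 and 11.23 at T0 and 11.56, 11.55 and 11.60 at T6, and in KO it was 11.27, 10.83 and 10.93 at T0 and 11.11, 11.06 and 11.13 at T6. The genotypes overlapped at T0 and did not at T6. The interaction of Scap was -0.22 ± 0.22 (SE, 3 arrays a group), and where its probes lie relative to the deleted exons was not analysed here. The T cell genes Cd3d, Cd8a and Cd8b1 had group means of 12.70 to 14.44, and Cd4 had 4.57 to 5.04, against 6.82 for the median of all group means (called the level below). Of the other listed markers of CD4 T cells, Cd40lg had 5.15 to 5.85 and Zbtb7b 6.02 to 7.36. The mean of Zbtb7b was above the level only in KO T0. In RNA of a bulk population, fewer cells of a type and less RNA per cell cannot be told apart. The number of arrays limits the precision.

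No gene's activation response was called different between the genotypes. The genes that rose or fell most by the mean of the WT and KO changes did so in both, which that choice favours. With limma and Benjamini-Hochberg adjustment over all 34945 probe sets, 0 interactions (0%) had an adjusted p under 0.05, and the lowest adjusted p was 0.0746. At an unadjusted p under 0.05 there were 1864 (5.33%), of which 1105 (3.16%) were above 0 and 759 (2.17%) below. Values above 0 thus made 59.3% of these, against 46.1% after quantile normalization and 49.9% after median centring of the arrays. Across all probe sets, 54.6% of interactions were above 0 and 45.4% below. A count of 0 is not a measure of sameness. In simulated data with these arrays' spread, interactions were added only to brighter probe sets, those with a mean above the median of all values. The fit recovered 0% of interactions of 0.5, 28.4% of those of 1 and 77.3% of those of 2 on the log2 scale. Recovery among dimmer probe sets was not tested. The median SE of the interaction was 0.331 over all probe sets and 0.236 above the level. Of the 18841 probe sets above the level, 14229 (75.5%) had a 95% interval that lay within 1 on either side of 0, so a difference of more than 2-fold was outside the interval for these.

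The activation response itself was large. In WT cells 1933 probe sets rose (5.53%) and 2453 fell (7.02%), together 12.6%, and in KO cells 1774 rose (5.08%) and 2201 fell (6.3%), together 11.4%. Called in both and in the same direction were 2749, which is 62.7% of the WT calls and 69.2% of the KO calls. A call in only one genotype did not show a difference. Of 1628 probe sets called only in WT, 1482 had the same sign in KO and 359 had an interaction at an unadjusted p under 0.05. Of 1217 called only in KO, the counts were 1090 and 307. The changes in the genotypes, which share no arrays, correlated at r = 0.705 over all probe sets and 0.89 over those above the level, as a description across genes that are not independent. The major-axis slope of the KO change on the WT change was 0.972. With any 1 of the WT arrays left out, the WT count of 4386 became 2922 to 3365. With any 1 of the KO arrays left out, the KO count of 3975 became 2489 to 3530. With a covariate for B cell and myeloid markers, which differ between T0 and T6, 80 probe sets were called in WT and 164 in KO.

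**Figure D1:**
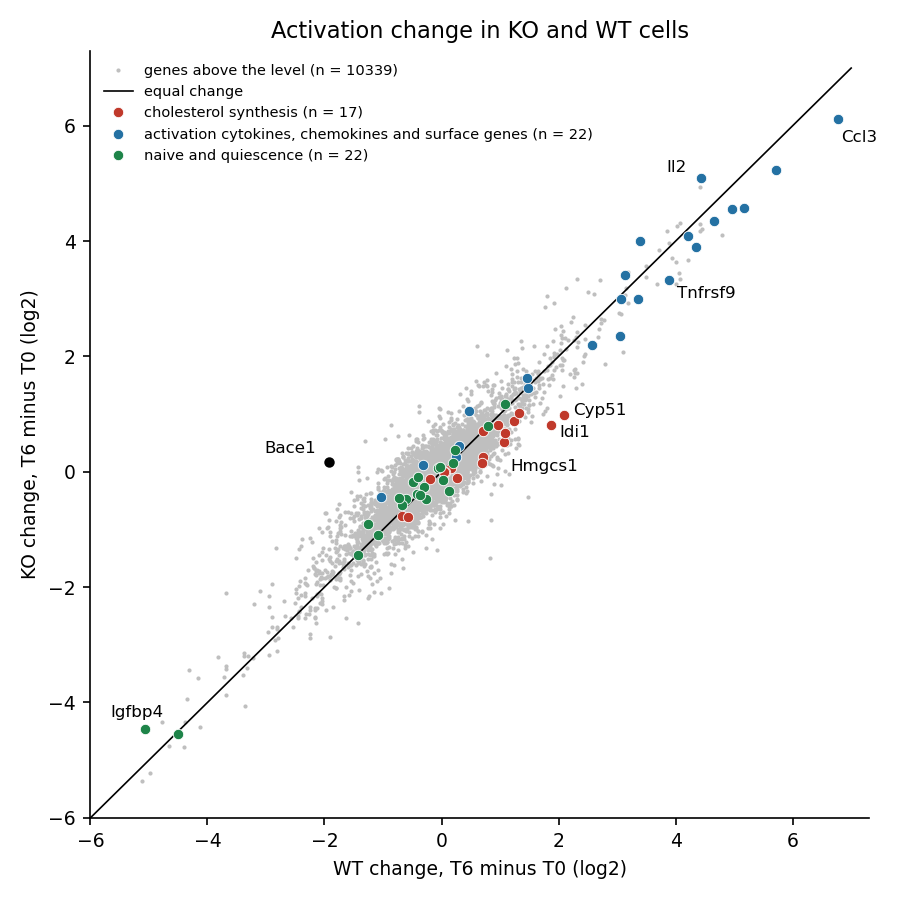
Change from T0 to T6 in KO cells (vertical, log2) against that in WT cells (horizontal, log2) for the 10339 genes above the level, 1 probe set each. Activation genes (blue, interactions of -0.71 to 0.67) and genes of naive cells (green, -0.46 to 0.61) lie on both sides of the line of equal change. Cholesterol synthesis genes (red) run from -1.12 to 0.08, with Cyp51 and Idi1 the furthest below the line. Bace1 (black) lies above it.

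The strongest responders, chosen by the mean of the WT and KO changes, had interactions on both sides of 0. Of the 86 genes above the level with a mean rise of at least 2 on the log2 scale, 37 had an interaction above 0 and 49 below, with a median of -0.11. Their median change was 2.75 in WT and 2.89 in KO, so the medians of the changes and of the interaction differ in sign, and over the alternative settings the median interaction ran from -0.18 to 0.03. Of the 92 with a mean fall of at least 2, 49 were above 0 and 43 below, with a median of 0.03 (-0.12 to 0.13 over the alternatives). The tilt was greater at a rise of at least 3, where 24 of 37 genes were below 0 with a median of -0.22, which ran from -0.37 to 0.00 over the alternatives with 18 below 0 without both KO replicate 2 arrays. For comparison, all 10339 genes above the level had a median of 0.03. The 95% interval lay within 1 of 0 for only 31 of the 86 rising genes.

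The genes with the largest responses show this spread. Ccl3, a chemokine that draws inflammatory cells, read 7.25, 7.22 and 7.11 at T0 and 14.10, 14.02 and 13.78 at T6 in WT. In KO it read 8.26, 7.14 and 8.27 at T0 and 14.16, 13.66 and 14.18 at T6. T6 values overlapped between the genotypes, and 2 of the 3 KO arrays were about 1 unit above WT at T0. Ccl3 rose by 6.77 in WT and 6.11 in KO, an interaction of -0.67 ± 0.40 (SE). Il2, the growth factor of activated T cells, had the opposite sign. It read 5.05, 5.54 and 4.28 at T0 and 8.92, 9.61 and 9.64 at T6 in WT, and 4.89, 4.81 and 4.76 at T0 and 10.20, 9.32 and 10.25 at T6 in KO. Its rise was 4.44 in WT and 5.10 in KO, with an interaction of 0.67 ± 0.48 and overlapping values in both states. At T0 Il2 lay below the level on every array, so its folds are understated. Ccl4, Xcl1, the membrane protein gene Sema7a and the IL-2 receptor chain Il2ra had interactions of -0.47, -0.41, -0.60 and -0.45, each with an interval that included 0. Other probe sets of Sema7a and Il2ra had the opposite sign, at 0.28 and 0.20, and the means of their probe sets gave -0.16 and -0.13. Among the falls, Igfbp4, a binding protein of insulin-like growth factors and a gene of naive T cells, fell by 5.06 in WT and 4.46 in KO, an interaction of 0.61 ± 0.32. Its other probe sets, all above the level and read from the same arrays, gave 0.42 to 0.79. All but that of 0.42 had an unadjusted limma p under 0.05, and none was called. The macrophage genes C1qa, C1qb, C1qc and Mrc1 fell by 4.40 to 5.37 in either genotype, with interactions of -0.38 to -0.11.

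Most genes of cholesterol synthesis had an interaction below 0, and none was called. The list had the lowest median of the 14 pathway lists here and in 20 of the 24 alternative settings. The activation transcription factors were lower without WT T6 replicate 3 (-0.29 against -0.26), without KO T0 replicate 2 (-0.24 against -0.16) and without KO T6 replicate 3 (-0.25 against -0.15). The amino acid and one-carbon list was lower with a covariate for the Actb difference described below (-0.23 against -0.20). With that covariate the activation transcription factors were lower too (-0.21). Of 20 listed genes 17 were measured, and the others were not analysed here. Of the 17, 16 had an interaction below 0, against 44.1% of all 10339 genes above the level. The median was -0.30, against 0.03, and over the 24 alternative settings it ran from -0.45 to -0.15 with 13 to 16 genes below 0. Of the 17, 4 had an unadjusted p under 0.05, all below 0. Of all 10339 genes above the level, 104 had such a p below 0 and 191 above. For 11 of the 17 the interval lay within 1 of 0, against 75.5% of all probe sets above the level. Activation raised 9 and lowered 2 of the 17 in WT, and raised 7 and lowered 2 in KO, with median changes of 0.71 and 0.25.

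The 4 genes with an unadjusted p under 0.05 are Cyp51, Idi1, Hmgcs1 and Sc5d, and the 250 bases before their start sites are shown because SREBP acts on sterol genes through promoter elements next to CCAAT boxes. Capitals mark TCACNCCAC, a spelling of the sterol response element, and CCAAT, each searched on both strands, so that CCAAT may read ATTGG. The sequences are from RefSeq on GRCm38.p6, printed 5′ to 3′ toward the gene. Cyp51 is at chr5:4104698-4104947 on the minus strand, Idi1 at chr13:8885356-8885605 and Hmgcs1 at chr13:119690101-119690350 on the plus strand, and Sc5d at chr9:42264301-42264550 on the minus strand.
Cyp51: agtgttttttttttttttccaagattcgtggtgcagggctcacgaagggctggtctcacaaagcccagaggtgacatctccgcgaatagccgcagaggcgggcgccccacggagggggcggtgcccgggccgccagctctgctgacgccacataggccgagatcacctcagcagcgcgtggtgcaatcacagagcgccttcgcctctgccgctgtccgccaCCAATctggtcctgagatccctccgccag
Idi1: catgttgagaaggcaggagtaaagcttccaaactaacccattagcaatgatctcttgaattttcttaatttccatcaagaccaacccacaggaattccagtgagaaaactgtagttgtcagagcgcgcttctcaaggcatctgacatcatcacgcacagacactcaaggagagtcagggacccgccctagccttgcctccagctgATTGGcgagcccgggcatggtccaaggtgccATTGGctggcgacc
Hmgcs1: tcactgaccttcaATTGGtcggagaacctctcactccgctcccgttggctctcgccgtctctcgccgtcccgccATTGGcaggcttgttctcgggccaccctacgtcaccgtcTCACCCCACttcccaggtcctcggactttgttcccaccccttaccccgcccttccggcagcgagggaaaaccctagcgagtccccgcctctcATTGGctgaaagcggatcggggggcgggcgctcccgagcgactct
Sc5d: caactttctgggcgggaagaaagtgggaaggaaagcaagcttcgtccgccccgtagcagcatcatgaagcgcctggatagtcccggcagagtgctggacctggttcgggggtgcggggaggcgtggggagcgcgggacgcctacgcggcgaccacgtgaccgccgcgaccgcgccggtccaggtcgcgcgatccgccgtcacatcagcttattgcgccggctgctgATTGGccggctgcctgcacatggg

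Of the 29 measured genes of the cholesterol synthesis and SREBP lists, 24 had such a window. CCAAT was in the windows of 21 of the 24 (87.5%), against 37.5% of 27025 genes in the table. TCACNCCAC was in 1 of the 24 (4.17%), Hmgcs1, where it begins 137 bases before the start, against 1.22% of genes. These are matches of letters in a window, not measured sites.

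Cyp51, the lanosterol demethylase, had the lowest interaction of the cholesterol synthesis list. In WT it read 8.47, 8.13 and 8.18 at T0 and 10.41, 10.24 and 10.44 at T6. In KO it read 7.46, 7.55 and 7.87 at T0 and 8.79, 8.82 and 8.21 at T6. WT lay above KO in either state with no overlap, and the gap was wider at T6. Cyp51 rose 4.30-fold in WT (2.10 log2, limma adjusted p = 8.46e-05) and 1.98-fold in KO (0.98, adjusted p = 0.00778). The interaction was -1.12 ± 0.27 (SE; 95% interval -1.71 to -0.53; adjusted p = 0.575). A second probe set above the level gave -1.0 (limma adjusted p = 0.518), and one near background gave 0.04. With the mean of its probe sets in place of the brightest, the interaction of Cyp51 was -0.70.

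Idi1, the isomerase that readies isoprene units for joining, gave a like picture. In WT it read 9.78, 9.66 and 9.84 at T0 and 11.67, 11.58 and 11.64 at T6, and in KO 9.39, 9.59 and 9.20 at T0 and 10.03, 10.77 and 9.82 at T6. All KO values lay below all WT values of the same state, and KO T6 replicate 2 was the highest KO array. Idi1 rose 3.66-fold in WT and 1.76-fold in KO (adjusted p = 0.000416 and 0.036). The interaction was -1.06 ± 0.31 (SE; interval -1.74 to -0.38; adjusted p = 0.742), and it ran from -1.34 to -0.86 over the alternatives.

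Hmgcs1, the cytosolic HMG-CoA synthase, acts at the pathway's entry. Its WT values were 11.30, 11.24 and 11.15 at T0 and 12.34, 12.17 and 12.40 at T6, and its KO values 10.90, 10.70 and 11.04 at T0 and 11.47, 11.24 and 11.45 at T6. Again the genotypes did not overlap in either state. The rise was 2.11-fold in WT and 1.42-fold in KO (adjusted p = 0.000515 and 0.03). The interaction was -0.57 ± 0.18 (SE; interval -0.97 to -0.16; adjusted p = 0.791). All 5 probe sets of Hmgcs1 gave -0.74 to -0.55, each at an unadjusted p under 0.05. They read the same 12 arrays and are not independent.

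Sc5d, a sterol desaturase near the end of the pathway, read 9.93, 9.50 and 9.73 at T0 and 10.52, 10.47 and 10.24 at T6 in WT. In KO it read 8.66, 8.57 and 8.76 at T0 and 8.76, 9.06 and 8.65 at T6. The genotypes were apart by more than their spread in both states, and the KO values of T0 and T6 overlapped. It rose by 0.69 in WT (adjusted p = 0.0154) with an uncalled 0.16 in KO (adjusted p = 0.598). The interaction was -0.53 ± 0.22 (SE; adjusted p = 0.918), and its other probe sets gave -0.69 and -0.13. Sc5d lies on chromosome 9, as Scap does.

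**Figure D2:**
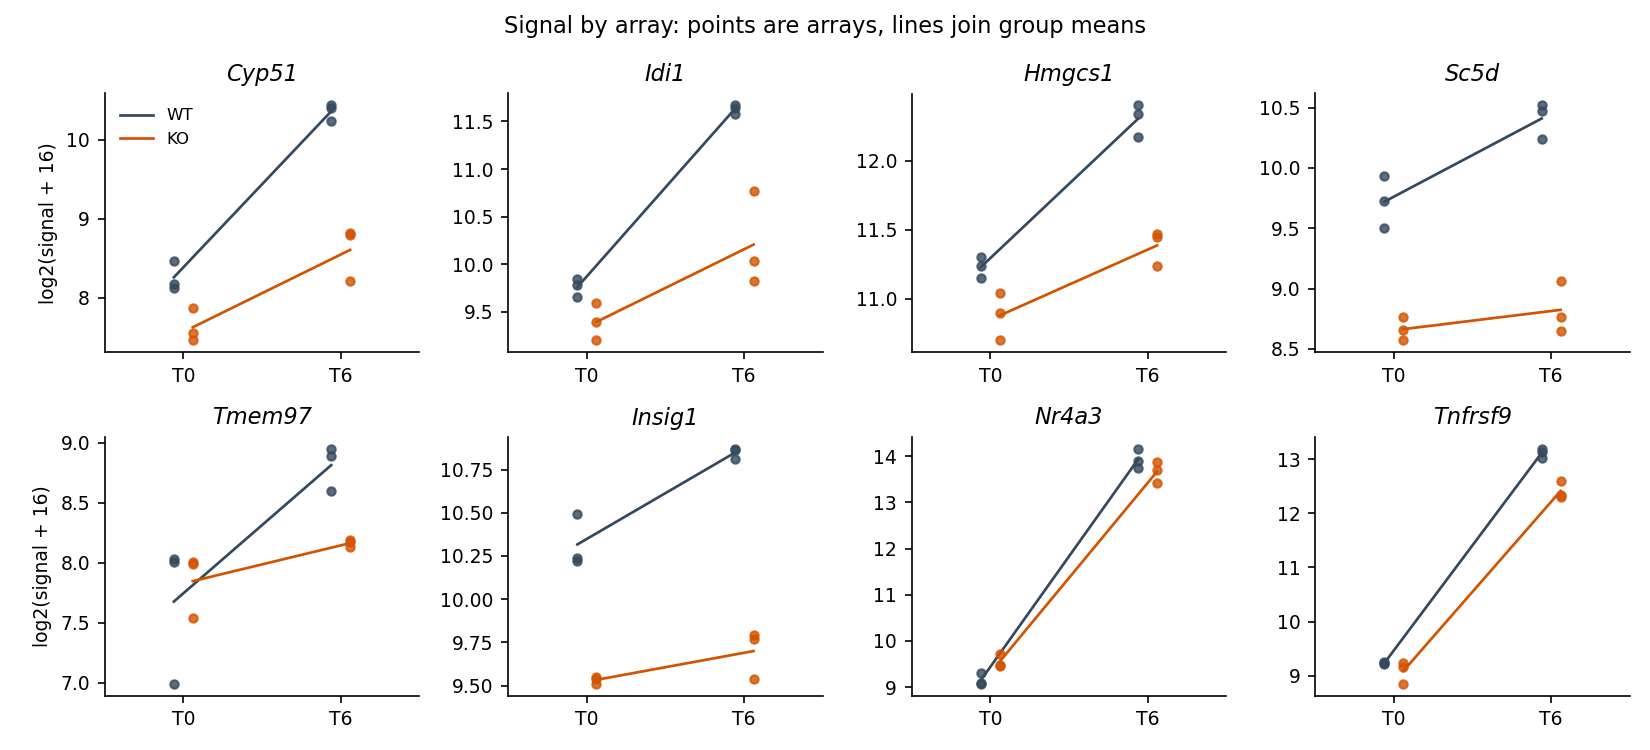
log2(signal + 16) of 8 genes at T0 and T6, with each point an array, 3 per group, and lines joining the group means of WT (dark) and KO (orange). The WT and KO lines of Cyp51 and Idi1 diverge from T0 to T6, while those of Nr4a3 start with KO above WT and end with KO below.

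Other enzymes of the pathway rose in both genotypes. Fdps, the farnesyl diphosphate synthase, rose by 1.24 in WT and 0.88 in KO. Sqle, the squalene epoxidase, rose by 1.32 and 1.02, Msmo1, a methylsterol oxidase, by 1.08 and 0.68, and Hsd17b7 by 0.96 and 0.81. Their interactions were -0.37, -0.30, -0.40 and -0.15, all with intervals that included 0. Lss, the lanosterol synthase, rose by 0.71 in WT, and its KO change of 0.25 was not called (interaction -0.46 ± 0.28). Its other probe sets had the opposite sign, at 0.18 above the level and 0.36 below it. Mvd and Dhcr7 fell in both genotypes, by 0.67 and 0.57 in WT and by 0.77 and 0.79 in KO. The one positive value of the 17 was that of Tm7sf2, a sterol reductase, at 0.08.

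The regulators of the pathway were measured for 12 of 14 listed genes, and the others were not analysed here. Of these 7 had an interaction below 0 and 5 above, with a median of -0.07 (-0.18 to 0.01 over the alternatives), and 0 were called. WT activation raised Srebf2, Insig1 and Tmem97 and lowered Mylip, a ubiquitin ligase. KO activation changed 0 of the 12 at an adjusted p under 0.05, but no difference between the genotypes was called for any of them. Insig1, itself an SREBP target whose product holds SCAP in the endoplasmic reticulum, read 10.49, 10.22 and 10.24 at T0 and 10.81, 10.87 and 10.86 at T6 in WT. In KO it read 9.55, 9.51 and 9.54 at T0 and 9.77, 9.79 and 9.54 at T6, below every WT array. Its changes were 0.53 and 0.16 and its interaction -0.37 ± 0.17 (SE; adjusted p = 0.935). Tmem97, whose product binds the cholesterol transporter NPC1, read 6.99, 8.01 and 8.03 at T0 and 8.95, 8.60 and 8.89 at T6 in WT, and 8.01, 7.99 and 7.54 at T0 and 8.19, 8.17 and 8.13 at T6 in KO. WT T0 replicate 1 was about 1 unit below the other WT T0 arrays, and the genotypes overlapped at T0 only. The interaction of Tmem97 was -0.82 ± 0.37 (adjusted p = 0.935), and -0.47 without that array. Srebf2, which encodes the SREBP most tied to cholesterol, had -0.22 ± 0.20, and Srebf1, tied to fatty acids, -0.02 ± 0.17. The proteases Mbtps1 and Mbtps2 had 0.16 and -0.11.

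**Figure D3:**
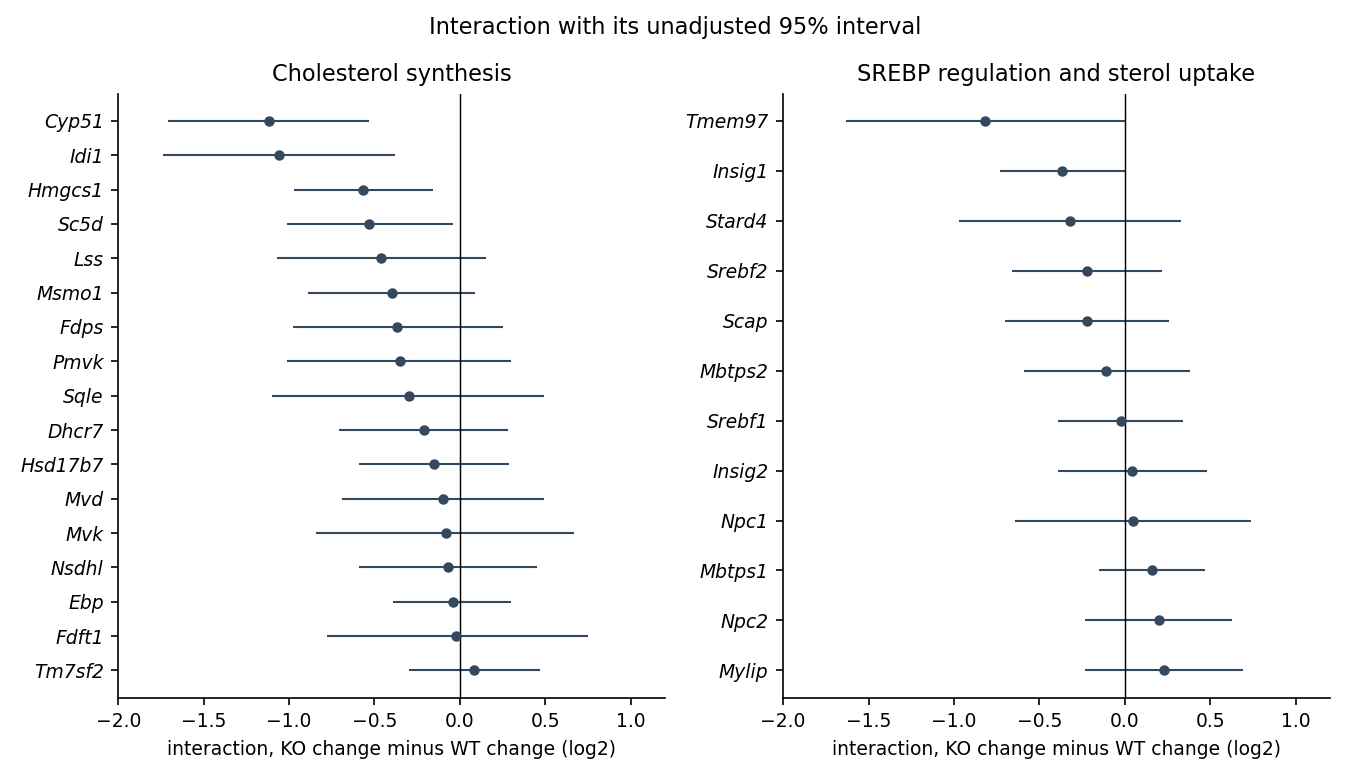
Interaction (KO change minus WT change, log2) of the 17 measured cholesterol synthesis genes (left) and 12 genes of SREBP regulation and sterol uptake (right), with unadjusted 95% intervals from limma. In the left panel 16 points lie below 0 and 4 intervals exclude it.

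Fatty acid and LXR genes had medians near 0. Of 21 fatty acid synthesis genes 13 were below 0 and 8 above, with a median of -0.06 (-0.10 to 0.01), and 0 had an unadjusted p under 0.05. The malic enzyme gene Me1, which supplies NADPH, rose by 1.40 in KO, with an uncalled 0.50 in WT. Its interaction was 0.90 ± 0.48, with an interval from -0.16 to 1.95. Me1 was dim, and only its KO T6 mean of 7.05 lay above the level. The other means were 5.91 in WT T0, 6.41 in WT T6 and 5.65 in KO T0. Of 7 genes of LXR, the receptor that senses oxysterols, the median was 0.02 (-0.20 to 0.14). Abca1, the cholesterol exporter, fell by 2.33 in WT and 1.92 in KO. Apoe fell by 2.26 and 2.46. Both are also made by macrophages, whose markers fell as given below.

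The activation genes responded in both genotypes. Of 22 cytokine, chemokine and surface genes, 17 rose and 1 fell in WT and 18 rose in KO, and 9 interactions were above 0 and 13 below, with a median of -0.10 (-0.24 to 0.05 over the alternatives). Tnfrsf9, the costimulatory receptor 4-1BB, had the smallest p. It read 9.25, 9.21 and 9.24 at T0 and 13.13, 13.19 and 13.02 at T6 in WT, and 8.85, 9.17 and 9.24 at T0 and 12.59, 12.34 and 12.30 at T6 in KO. The genotypes were apart at T6 and overlapped at T0. Tnfrsf9 rose by 3.88 and 3.32, an interaction of -0.56 ± 0.19 (SE; adjusted p = 0.797), and its other probe set above the level gave -0.43.

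Of 23 activation transcription factors, 15 rose in each genotype, and 7 interactions were above 0 and 16 below, with a median of -0.13. That median ran from -0.29 without WT T6 replicate 3 to -0.05 without KO T6 replicate 2, where 12 were below 0 and 11 above. Nr4a3, an orphan nuclear receptor induced by the T cell receptor, read 9.30, 9.07 and 9.08 at T0 and 14.16, 13.90 and 13.74 at T6 in WT, and 9.48, 9.46 and 9.72 at T0 and 13.87, 13.42 and 13.71 at T6 in KO. KO lay above WT at T0 and overlapped it at T6. Its rises were 4.79 and 4.11 and its interaction -0.67 ± 0.23 (SE; adjusted p = 0.792). Irf8, which is also a gene of B and myeloid cells, had -0.84 ± 0.34 with rises of 2.29 and 1.45, and its other probe set gave -0.67. The immediate early gene Egr1 had -0.49 ± 0.20 with rises of 1.43 and 0.95. Batf, a partner of JUN proteins in effector cells, had 0.61 ± 0.27, with a fall of 1.03 in WT and an uncalled -0.42 in KO.

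The lists for growth gave small values. Activation raised 20 of 24 ribosome biogenesis genes in WT and 14 in KO, and 21 interactions were below 0 with a median of -0.08. For 23 of the 24 the interval lay within 1 of 0, and without both KO replicate 2 arrays 12 of 24 were below 0. Nop58, a core protein of the small nucleolar particles, rose by 0.83 in WT and was uncalled in KO at 0.47 (interaction -0.36 ± 0.20). Of 16 amino acid transport and one-carbon genes, 13 were below 0 with a median of -0.18, and WT raised 11 and KO 10. Without KO T0 replicate 2 there were 10 below 0 with a median of -0.08, without WT T6 replicate 1 the median was -0.10, and without both KO replicate 2 arrays it was -0.06. Shmt1, a serine hydroxymethyltransferase, rose by 2.67 and 2.33. The glutamine carrier gene Slc38a2 had 0.53 ± 0.18 (adjusted p = 0.819) with changes of -0.36 and 0.17 that were not called. Its other probe sets, both above the level, went down in both genotypes, with changes of -1.03 and -0.78 in WT and -0.95 and -0.44 in KO. Their interactions were 0.08 and 0.34. The 15 glycolysis genes had a median of -0.02, with 8 below 0.

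The remaining lists held single genes of note. Ddit4, an inhibitor of mTORC1, read 10.20, 10.73 and 10.16 at T0 and 9.18, 9.49 and 8.98 at T6 in WT, and 11.48, 10.76 and 11.18 at T0 and 9.22, 9.23 and 8.73 at T6 in KO. KO was above WT at T0 on every array, and the genotypes overlapped at T6. Ddit4 fell by 1.15 and 2.08, an interaction of -0.93 ± 0.34 (SE; adjusted p = 0.860), within a stress list of 14 with 7 on each side of 0 and a median of -0.05 (-0.15 to 0.02). The 22 genes of naive and quiescent cells had a median of 0.06 (-0.01 to 0.15 over the alternatives), and for 20 of them the interval lay within 1 of 0. Foxo1, which keeps T cells quiescent, fell by 1.25 in WT and 0.91 in KO (interaction 0.34 ± 0.18). The 15 interferon genes had a median of 0.13 with 12 above 0. The median was 0.01 without WT T6 replicate 1, 0.36 without WT T6 replicate 2 and 0.46 with the Actb covariate, and the widest of their named intervals, that of Ifit1, ran from -1.21 to 2.44. The 12 apoptosis genes had a median of 0.12 (-0.02 to 0.20) and the 23 cell cycle genes 0.03. For cell cycle genes the median ran from -0.40 to 0.35 over the alternatives. Their summed level was highest on the KO replicate 2 arrays, at means of 11.45 and 11.48, against 9.60 to 10.93 on the others. Erythroid markers were highest on the same arrays, at 11.02 and 11.31, and the part of these cells in the cell cycle values was not tested.

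**Figure D4:**
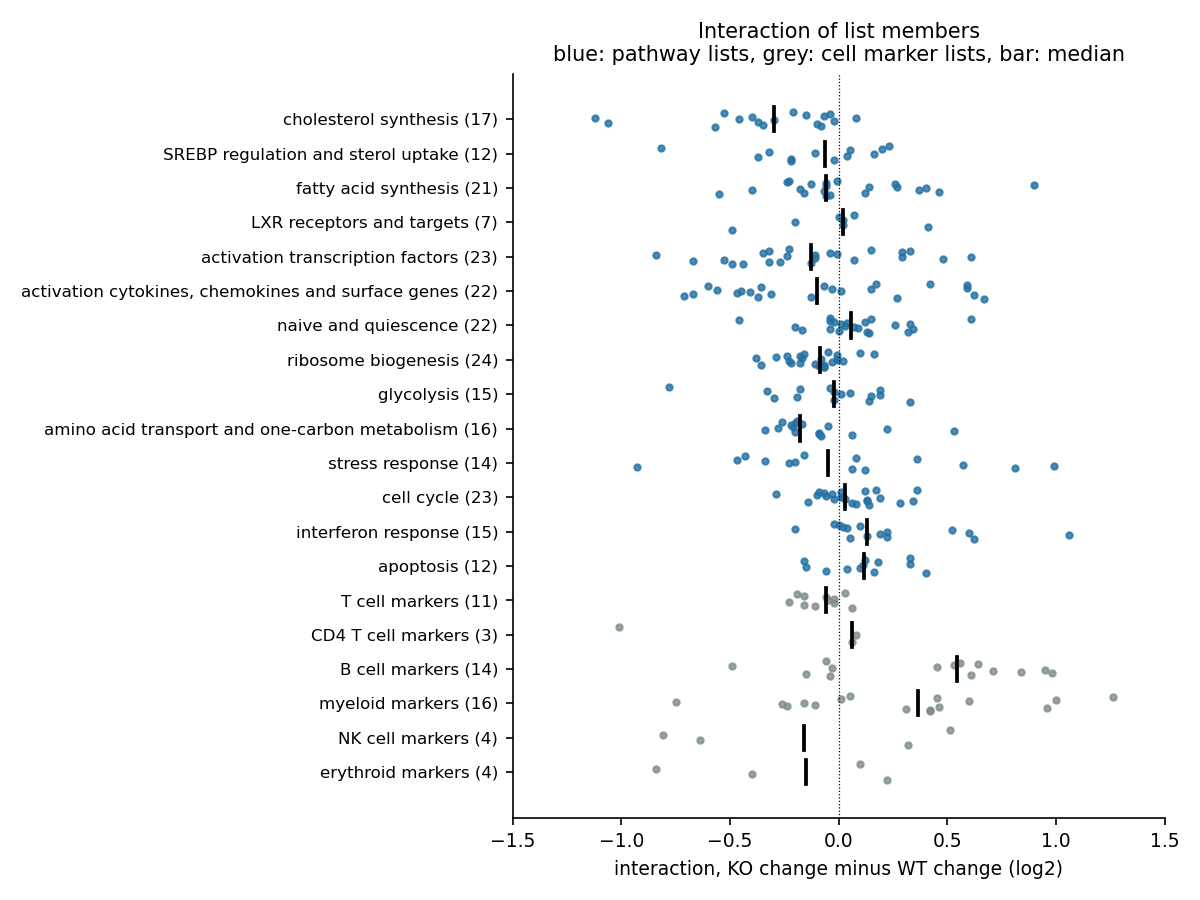
Interaction (log2) of each measured member of the 14 pathway lists (blue) and 6 cell marker lists (grey), with bars at the medians and member counts in parentheses. The median of cholesterol synthesis is -0.30, and those of B cell and myeloid markers are 0.54 and 0.37. Leaving out single arrays changes which pathway list is lowest.

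Among genes above the level, each read by its brightest probe set, those with the smallest p were, on the positive side, Wscd2, Bace1, Mob3c, Zbtb11os1, Fbxl4, Zfand3, Tcaim and A830010M20Rik. On the negative side they were Zc3h13, Mir1949, Cyp51, Hspbap1, Hspa8, Ubxn4, Idi1 and Amer1, and none of the 16 was called. A WT fall is favoured by the choice of the positive genes. All 8 fell in WT, as 7.02% of all probe sets did, and of these 1, Wscd2, also fell in KO. Wscd2 read 7.85, 7.79 and 8.01 at T0 and 6.07, 6.12 and 6.09 at T6 in WT, and 6.81, 6.91 and 6.86 at T0 and 5.96, 6.40 and 6.31 at T6 in KO. The genotypes were apart at T0, with WT higher, and overlapped at T6. Its interaction was 1.15 ± 0.18 (SE; adjusted p = 0.424).

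Bace1, the beta-secretase that cleaves amyloid precursor protein, had the largest value of the 16. It read 9.24, 8.65 and 9.30 at T0 and 6.98, 7.54 and 6.90 at T6 in WT. In KO it read 5.89, 6.03 and 5.83 at T0 and 5.76, 6.53 and 5.97 at T6, below the level on every array. Its WT fall was 1.92 and the KO change 0.17, an interaction of 2.09 ± 0.35 (SE; adjusted p = 0.424). Every KO T0 value was already below every WT T6 value, and its other probe sets gave 0.73 to 0.90. Bace1, like Scap, lies on chromosome 9, and so do Tcaim and Hspa8 among the 16. The share of all genes on that chromosome was not counted here.

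Zc3h13, a subunit of the complex that writes N6-methyladenosine on mRNA, was at 9.76, 9.67 and 9.84 at T0 and 10.03, 9.85 and 9.89 at T6 in WT, and at 9.58, 9.66 and 9.63 at T0 and 9.12, 8.91 and 9.04 at T6 in KO. It fell by 0.60 in KO, with an uncalled 0.17 in WT, an interaction of -0.77 ± 0.15 (SE; adjusted p = 0.466). Hspa8, the constitutive HSC70 chaperone, rose by 0.54 in WT, with an uncalled -0.04 in KO. Its interaction was -0.58 ± 0.16, and its other probe sets gave -0.23, -0.13 and -0.03. Of the 16 genes 10 had another probe set above the level. For Cyp51 and Idi1 such a probe set had the same sign and an unadjusted p under 0.05. For the other 8 none did, and for Zfand3, Hspbap1 and Amer1 at least 1 had the opposite sign.

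Cell markers and 1 measure of RNA quality, that of Actb, moved along with the groups. Of 14 B cell markers 9 had an interaction above 0 with a median of 0.54, and of 16 myeloid markers 11 with a median of 0.37. Their mean log2 levels per array were, for myeloid markers, 9.80 to 10.17 in WT T0, 7.06 to 7.49 in WT T6, 10.24 to 10.55 in KO T0 and 7.80 to 8.25 in KO T6. The B cell median was 0.93 without KO T0 replicate 1, 0.25 without KO T0 replicate 2 and 0.13 without KO T6 replicate 1, and the myeloid median 0.04 without WT T6 replicate 3. For B cell markers the levels were 8.73 to 9.63, 7.98 to 8.93, 9.50 to 10.81 and 9.18 to 10.21. In list means, the largest marker difference between the genotypes was that of erythroid markers, with 4 of 7 listed genes measured. Their mean level was 7.87 to 8.52 on the WT arrays, 10.49, 11.02 and 8.94 in KO T0 and 9.93, 11.31 and 8.78 in KO T6. Slc4a1, the anion exchanger of red cells, had means of 7.60 and 8.37 in WT T0 and T6 and 11.99 and 11.91 in KO. The other measured genes did not separate the genotypes. Alas2 and Car2 overlapped between them in both states, and Hba-a1 lay below the level in every group, with means of 4.46 to 4.95. The median interaction of the 4 was -0.15, from -1.03 without KO T6 replicate 2 to 0.33 without KO T6 replicate 3. Activation lowered 12 of 16 myeloid markers in WT and 11 in KO. Tyrobp, an adaptor of myeloid and NK receptors, fell by 2.90 in WT and 1.94 in KO (interaction 0.96 ± 0.35). Hmox1, the heme oxygenase of macrophages, fell by 1.97 in WT, with an uncalled -0.71 in KO (interaction 1.26 ± 0.39). These are the 2 myeloid markers with an unadjusted p under 0.05, while C1qa, C1qb, C1qc, Adgre1 and Itgam had -0.24, -0.11, -0.26, -0.16 and -0.75. The 11 T cell markers had a median of -0.06, with all 11 intervals within 1 of 0. The log2 difference between 3′ and 5′ probe sets of Actb, a sign of RNA degradation, was 0.216 to 0.369 in WT T0, 0.448 to 0.541 in WT T6, 0.234 to 0.505 in KO T0 and 0.617 to 0.793 in KO T6. That of Gapdh was 0.043 to 0.095, 0.082 to 0.172, 0.004 to 0.297 and 0.151 to 0.363 in the same order. The Gapdh values overlapped between T0 and T6 in either genotype, and between the genotypes at T6. With the B cell and myeloid marker level as a covariate, the interactions were -1.17 for Cyp51, -1.06 for Idi1, -0.60 for Hmgcs1 and -0.60 for Sc5d, and with the Actb difference as one, -0.94, -0.96, -0.60 and -0.46. With either covariate, 0 of the 98 named genes were called.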

How the data were processed

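Affymetrix mouse arrays of 12 samples were used. The deposited values are linear signal intensities made by the authors with GCOS (version not given in the sources used here), per the submitters' processing notes. Background and summary methods are not stated. The mean after trimming 2% at each end was 500.003 on every array, so each had been scaled, and medians were 61.3 to 76.2. Of 45101 probe sets, 64 controls, 932 with several gene symbols and 9160 with none were left out. Symbols came from GEO's platform annotation, checked through Entrez IDs against RefSeq (GRCm38.p6), where 34741 probe sets matched and 0 symbols changed.

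Values were taken as log2(signal + 16), which understates changes of dim genes, with no further normalization and no filter. limma 3.58.1 in R 4.3.3 (lmFit, eBayes, two-sided) fitted 4 group means over all 12 arrays. Calls had a Benjamini-Hochberg adjusted p under 0.05 over 34945 probe sets, errors are SEs of that fit and intervals are at 95%. Where a gene had several probe sets, the one with the highest mean stood for it.

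Named were Scap, the sterol and SREBP lists, up to 8 genes in each direction of the interaction (by smallest p, above the level, with fewer called), up to 4 members of each other list by smallest p, and the 5 largest rises and falls. Genes named outside this rule, among them the cell markers, were chosen after their values were seen. Members, lists and alternatives were chosen with earlier results of these data known. Replicates are labelled biological. The design text gives 3 mice of each genotype for 6 arrays, so T0 and T6 arrays would share mice, but it does not say which, and the test treats the arrays as independent. Arrays of the same number correlated at 0.21, 0.48 and 0.39 in KO and 0.20, -0.03 and -0.10 in WT after group means were removed, so they were not paired. On simulated data with 67, 67 and 66 interactions of 0.5, 1 and 2, the test made 4 false calls among 34945. These interactions were placed only in the brighter probe sets described above. Alternatives covered the added constant, normalization, filters, probe set choice, variance trend, a replicate block, covariates and single arrays left out.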

Additional observations from a re-analysis of the deposited data

How the results depend on the processing

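Of 98 named genes, 81 kept the sign of their interaction in all 24 alternative settings, 12 of which left out 1 array each, and 0 were called in any. The settings with an added constant of 64 or 1, quantile normalization, median centring, filters, means of probe sets, an intensity trend and the replicate block each called 0 interactions. The only calls were of Ank3, which encodes an ankyrin and lies below the level: 1 interaction with a covariate for B cell and myeloid markers (2.25, limma adjusted p = 0.049), and 1 without KO T6 replicate 1 (2.29, adjusted p = 0.0352). The 12 settings with an array left out thus called 0 to 1 higher and 0 lower.

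Activation counts varied more. WT probe sets called numbered 80 with the marker covariate and 1414 with an Actb 3′ minus 5′ covariate, which was chosen after seeing the data, and 2922 to 4562 with 1 array left out. KO counts were 164, 179 and 2489 to 3867. These covariates move with T0 and T6, so they take up part of the activation contrast. With the replicate block, the counts were 1441 up and 2054 down in WT and 1238 and 1717 in KO, and 1346 higher and 871 lower interactions had an unadjusted p under 0.05. The slope of KO on WT change was 0.880 with the marker covariate, 1.22 with the Actb covariate, 1.11 without both KO replicate 2 arrays (also chosen after seeing the data) and 0.893 to 1.09 with 1 array left out. So whether the KO response was the steeper or the shallower depends on the setting. The correlation was 0.837 with an added constant of 64, 0.473 with 1, 0.836 with the filter at percentile 40, 0.866 with 1 probe set per gene, 0.740 with means of probe sets, 0.885 and 0.758 with the covariates, 0.680 without both KO replicate 2 arrays, and 0.669 to 0.686 with 1 array left out.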

Other observations

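Where a gene had at least 2 probe sets above the level, the interaction could be read more than once, although from the same arrays. Of 4915 such genes, 13 had an unadjusted p under 0.05 on all of these probe sets in the same direction. The 4 below 0 were Cyp51, Hmgcs1, Idi1 and Rnf19a, of which the first 3 belong to cholesterol synthesis. The 9 above 0 were Cdkn2aip, Fbxo33, Hk3, Il12b, Kif23, Pxylp1, Ramp1, Uvssa and Xrcc4. Their values ranged from 0.39 and 0.45 for Fbxo33 to 0.84 and 1.86 for Il12b, a subunit of interleukin-12 made by myeloid cells. Kif23, a kinesin of cell division, gave 1.15 and 1.21, and it lies on chromosome 9, as Pxylp1 does. Rnf19a, a ubiquitin ligase, gave -0.44 and -0.39. These genes were chosen after their values were seen.

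In contrast, probe sets could disagree. For Sema7a, Il2ra and Lss the signs differed, as given above. Mvd had -0.10 on its brightest probe set and 0.23 on another. Fdft1, with uncalled changes of 0.71 in WT and 0.70 in KO, had -0.02 on its brightest probe set. Its others gave 0.36 above the level and 0.29 and 0.93 below it, and the sign of its interaction changed in 8 of the 24 alternatives. Bad, a promoter of cell death, had 0.18 on its brightest probe set and -1.07 (limma adjusted p = 0.757) on another. Dkc1, the pseudouridine synthase of box H/ACA particles, had 1 sign but values of -0.24, -0.57 and -0.06.

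Among called activation changes, 9 probe sets moved in opposite directions in the genotypes. They are annotated to Ank3, Dcstamp, Dbndd1, Slc10a1, Socs7, Lrp2bp, Apcs, Adam2 and Morrbid, and all lie below the level. Ank3 read 5.51, 5.60 and 5.56 at T0 and 4.36, 4.25 and 4.34 at T6 in WT, and 4.21, 4.48 and 4.64 at T0 and 5.03, 5.38 and 5.60 at T6 in KO. It thus fell in WT and rose in KO with no overlap between states, and its interaction of 2.13 ± 0.23 (SE) had an adjusted p of 0.0746. Dcstamp, a fusion protein of osteoclasts, read 5.53, 5.67 and 5.61 at T0 and 4.62, 4.76 and 4.93 at T6 in WT, and 4.60, 4.44 and 4.26 at T0 and 5.57, 5.44 and 6.04 at T6 in KO. Its interaction was 2.08 ± 0.24, with the same adjusted p. All signals of Ank3 and Dcstamp lie at or near the background of these arrays.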
